A study of Mus musculus with 6 samples.

Results

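The nuclear genes of mitochondrial complex I were examined in left ventricles of mice carrying the 4SA-Rad knock-in allele and of wild-type mice. Members were all symbols of the deposited count table that begin with Ndufa, Ndufb, Ndufc, Ndufs or Ndufv, hold no -ps suffix and reach 10 counts in at least 3 of the 6 libraries. The table listed 34945 symbols, and 53 carried such a prefix. Of these, 3 were left out for a -ps suffix and 3 for low counts, which left 47 members, namely 39 subunits and 8 assembly factors with symbols beginning Ndufaf. Subunits are counted by symbol, so the 39 include Ndufa4 and Ndufa4l2, and also Ndufb4c, a processed pseudogene in GENCODE M21. All 47 were among the 13485 genes that passed the filter on low counts. Ndufaf8 had the lowest counts of the members, between 121 and 170 in each library, whereas Ndufa11b, Ndufb11b and Ndufs6b, which missed the minimum, had 0 or 1 count in each library. Ndufb1 is not analysed here.

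The tested animals were 3 knock-in mice, set against 3 wild-type mice, and the labels give the strain C57BL/6N for all 6. The series title ties the allele to the role of Rad phosphorylation in calcium entry during the fight-or-flight response of the heart. Rad, the product of Rrad, is a small GTP-binding protein that restrains L-type calcium channels. The sources used here give no age or sex, do not describe the substitution or the founder lines of the allele, and name no litter or batch.

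Complex I, the NADH:ubiquinone oxidoreductase, is the entry point of electrons from NADH into the respiratory chain of the inner mitochondrial membrane. It is shaped like an L. At the tip of the arm that reaches into the matrix the N module oxidises NADH, a chain of iron-sulfur clusters carries the electrons to the Q module where ubiquinone is reduced, and the membrane arm (a proximal and a distal part) pumps protons. A small set of core subunits, conserved from bacteria, does the catalysis, the supernumerary subunits surround and stabilise it, and assembly factors build it without staying in the finished enzyme. The membrane arm's core subunits are encoded by the mitochondrial genome and all other subunits by nuclear genes. Heart muscle is among the tissues richest in this enzyme.

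Libraries held 35259459 to 39627397 estimated counts in knock-in mice and 24761124 to 32669182 in wild-type mice, so every knock-in library was the deeper one. Transcripts of the mitochondrial genome took 53.5% to 56.9% of the counts in knock-in libraries and 53.1% to 55.8% in wild-type libraries. Rrad averaged 42.0 ± 14.9 CPM in knock-in ventricles and 35.6 ± 7.94 CPM in wild-type ventricles (SD, n = 3 each; edgeR adjusted p = 0.554), which is a level and does not read the altered codons. CPM values are normalised read counts (counts-per-million) after scaling of the libraries by the TMM method. Markers of ventricular cardiomyocytes summed to 49333 to 50219 CPM in knock-in libraries and 48322 to 50400 CPM in wild-type libraries. Of these 10 markers 0 passed the test, but single markers went both ways. Myh6, Myl2, Tnnt2 and Tnni3 were higher in every knock-in mouse than in any wild-type mouse, and Actc1 was lower in every one. Their edgeR adjusted p-values ran from 0.0586 (Tnnt2) to 0.498 (Tnni3). Macrophage markers summed to 55.7 to 63.5 CPM in knock-in libraries and 70.3 to 72.8 CPM in wild-type libraries, with 3 of 5 lower in knock-in. Of 5 endothelial markers 2 were lower in knock-in. Their sums overlapped, at 357 to 416 CPM in knock-in and 384 to 407 CPM in wild-type libraries. The part of both cell types in the results was not tested. Of all genes tested, 5.01% were lower in knock-in at an edgeR adjusted p below 0.05, and 9.01% passed in either direction. CPM ranges of the genotypes did not overlap in 29.4% of all genes tested. Smooth muscle and pericyte markers summed to 451 to 465 CPM in knock-in and 482 to 499 CPM in wild-type libraries, with 0 of 5 passing, and Ucp1, which defines brown fat, was at 0 in all 6. Erythroid markers varied most, from 602 to 5298 CPM in knock-in and from 585 to 2225 CPM in wild-type libraries (0 of 5 passing), and of 3 lymphocyte markers tested 1 was higher in knock-in, in a list that summed to 3.03 CPM or less in every library. Nnt, a mitochondrial transhydrogenase gene known to be partly deleted in C57BL/6J but not in C57BL/6N mice, had 596, 730 and 716 CPM in knock-in mice, against 282, 272 and 262 CPM in wild-type mice (edgeR adjusted p = 2.02e-05). A substrain background of this kind and the Rad allele divide the 6 mice in the same way and cannot be told apart in any result that follows.

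In knock-in ventricles 6 subunit genes were lower than in wild-type ventricles by 10.3% to 14.3%, and none of the 47 members rose. They were Ndufa2, Ndufv2, Ndufv3 and Ndufa12 of the N module, Ndufs7 of the Q module and Ndufc1 of the proximal membrane arm. A gene is said to have fallen or risen when its adjusted p was below 0.05 in edgeR's quasi-likelihood test (two-sided, Benjamini-Hochberg adjustment over all 13485 genes). Of all genes tested, 9.01% passed in either direction and 5.01% were lower in knock-in, beside 12.8% of the members. The other 41 members did not pass. An unadjusted p below 0.05 was reached by 19 members (40.4%, against 25.2% of all genes tested), all with lower values in knock-in. Of the 47 log2 fold changes 39 (83.0%) were below 0, against 49.3% of all genes. With scaling by library size alone 10 members were lower and all 47 values were below 0, in a fit where 83.8% of all calls were lower in knock-in, against 55.6% with TMM. Because the samples are whole tissue, fewer cells of a type and less RNA per cell cannot be told apart.

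Ndufc1, a small supernumerary subunit with a membrane-spanning helix, had the smallest p. It measured 46.3, 43.0 and 43.5 CPM in knock-in mice, against 51.5, 51.5 and 50.8 CPM in wild-type mice. The groups did not overlap, and the wild-type mice lay within 1 CPM of each other. The means were 44.3 ± 1.76 CPM in knock-in and 51.3 ± 0.406 CPM in wild-type (SD, n = 3 each), a log2 fold change of -0.21 ± 0.05 (SE; edgeR adjusted p = 0.0248). Ndufc1 lies on chromosome 3, chr3:51404677-51408988, minus strand (GRCm38, GENCODE M21).

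Ndufs7 is the core subunit that holds the last iron-sulfur cluster before ubiquinone. Its level was 81.9, 91.4 and 91.0 CPM in knock-in mice and 105, 102 and 100.6 CPM in wild-type mice. Every knock-in mouse lay below every wild-type mouse, and knock-in replicate 1 lay furthest down. Its log2 fold change was -0.22 ± 0.05 (SE; edgeR adjusted p = 0.0284), with means of 88.1 ± 5.34 CPM in knock-in and 102.5 ± 2.52 CPM in wild-type (SD, n = 3 each). The gene spans chr10:80249121-80256794 on the plus strand.

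The other core subunit that fell was Ndufv2, which carries an iron-sulfur cluster at the NADH-oxidising tip. Its values were 207, 217 and 198 CPM in knock-in mice, against 232, 235 and 239 CPM in wild-type mice. The log2 fold change was -0.18 ± 0.05 (SE; edgeR adjusted p = 0.0362), and the knock-in mice spread more widely, with an SD of 9.50 CPM beside 3.73 CPM in wild-type. Its partner in the tip, Ndufv1, which binds NADH and the flavin cofactor, had 272, 286 and 292 CPM in knock-in mice and 277, 282 and 272 CPM in wild-type mice. The Ndufv1 groups overlapped, and the log2 fold change of 0.03 ± 0.04 (SE; edgeR adjusted p = 0.686) has a size of less than 1 SE and turns negative with scaling by library size alone (-0.05). The difference between the changes of Ndufv2 and Ndufv1 was not tested.

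Ndufa2, an N-module supernumerary subunit with a thioredoxin-like fold, had the lowest log2 fold change of the subunits, at -0.22 ± 0.05 (SE; edgeR adjusted p = 0.0300). The knock-in mice held 42.9, 42.1 and 41.2 CPM and the wild-type mice 52.2, 48.3 and 46.8 CPM. Here the wild-type mice were the more variable group, and their highest value came from the shallowest library. Ndufv3, a small subunit at the flavoprotein tip, measured 109, 110.4 and 103 CPM in knock-in mice and 122, 120.2 and 120.0 CPM in wild-type mice, a log2 fold change of -0.17 ± 0.04 (SE; edgeR adjusted p = 0.0379). Ndufa12 joins the N module late in assembly, at the place that the related factor Ndufaf2 holds before it. It measured 154, 153 and 147 CPM in knock-in mice and 167, 166 and 173 CPM in wild-type mice, a log2 fold change of -0.16 ± 0.04 (SE; edgeR adjusted p = 0.0449). In all 3 genes the lowest wild-type mouse stood above the highest knock-in mouse. Ndufv3 and Ndufv2 lie on chromosome 17, Ndufa12 on chromosome 10 with Ndufs7, and Ndufa2 on chromosome 18.

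**Figure D1:**
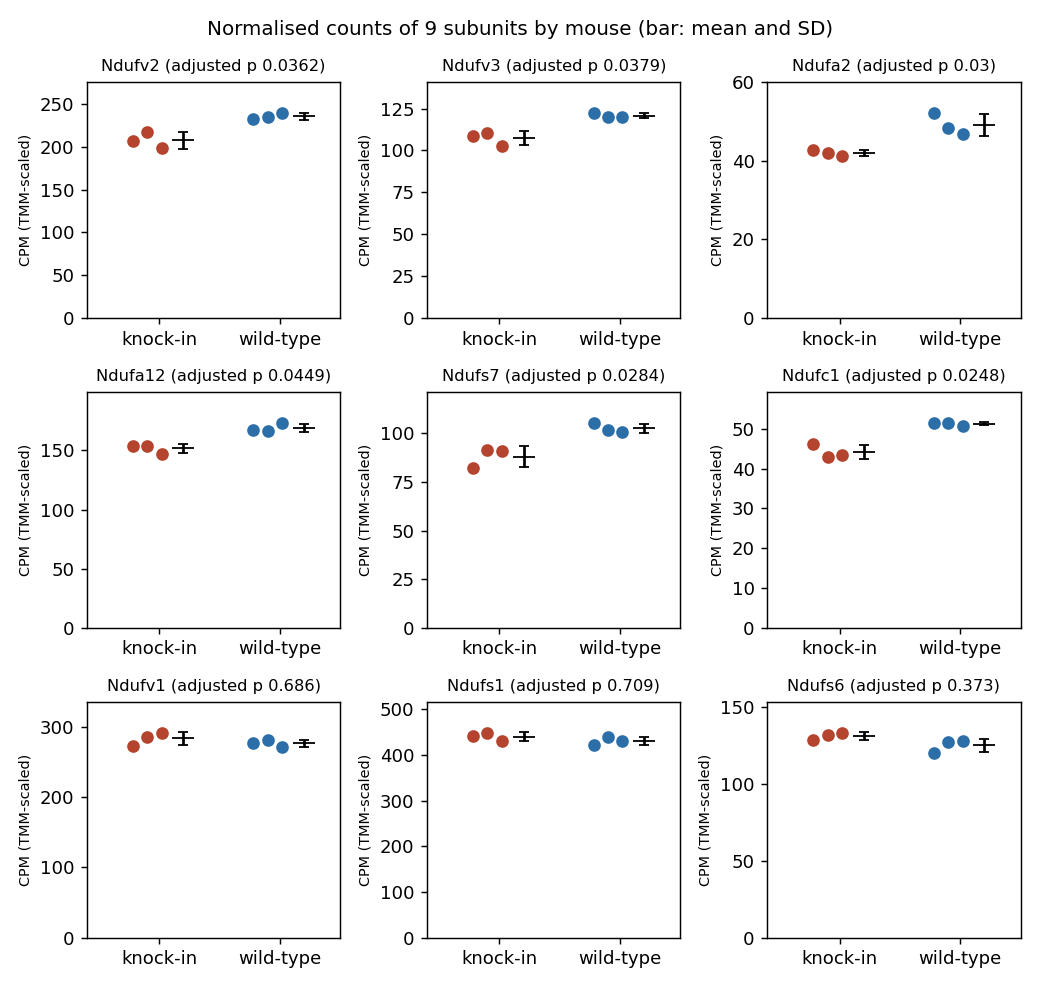
TMM-scaled CPM (vertical axes, from 0) of 9 subunits in each mouse, knock-in left and wild-type right, with the mean and SD as bars. In the 6 subunits that fell all 3 knock-in points lie below all 3 wild-type points, whereas Ndufv1 and Ndufs1 overlap and the knock-in points of Ndufs6 lie just above the wild-type ones.

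None of the 6 calls held in every fit that left out a library. When a mouse was left out, edgeR called 2 members without knock-in replicate 1 (Ndufa2 and Ndufc1), 2 without knock-in replicate 2 (Ndufs7 and Ndufv2), 1 without wild-type replicate 3 (Ndufa2), and 0 without knock-in replicate 3, wild-type replicate 1 or wild-type replicate 2. Ndufa2 stayed called in 2 of these 6 fits, Ndufc1, Ndufs7 and Ndufv2 in 1 each, and Ndufv3 and Ndufa12 in 0. Of all genes, between 1.48% and 5.71% were called lower in these fits, which had fewer mice, beside 5.01% with all 6 libraries. Across the same fits the log2 fold change stayed between -0.26 and -0.18 for Ndufa2 and between -0.17 and -0.14 for Ndufa12. Upper-quartile scaling ended the calls of Ndufv2 (edgeR adjusted p = 0.0549), Ndufv3 (0.0606) and Ndufa12 (0.0697).

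**Figure D2:**
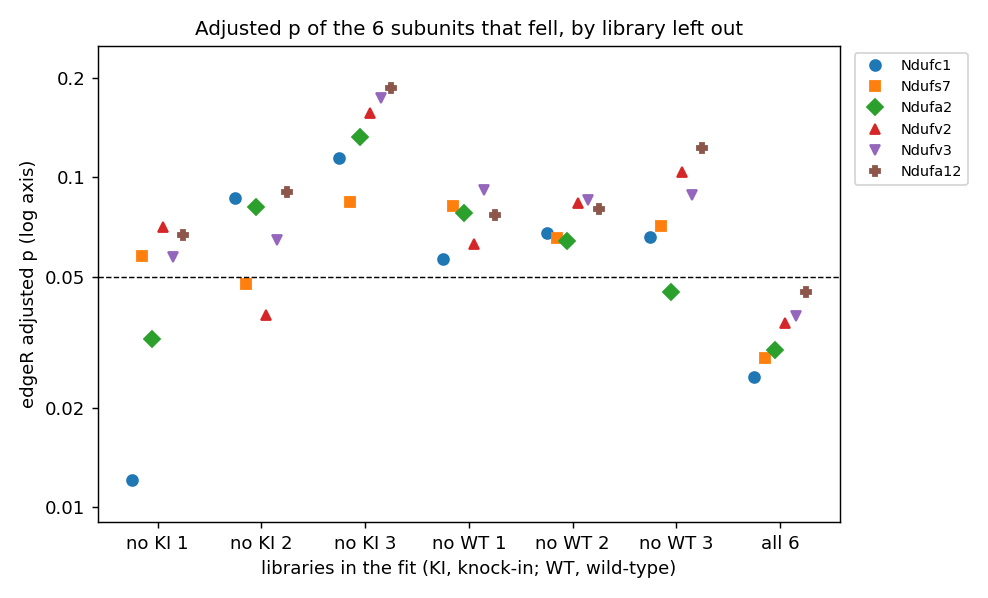
edgeR adjusted p (vertical axis, logarithmic) of the 6 subunits that fell, with each library left out in turn and with all 6 libraries (horizontal axis). The dashed line is the threshold of 0.05: with all 6 libraries every point is below it, and without knock-in replicate 3, wild-type replicate 1 or wild-type replicate 2 every point is above it.

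Sequence around the transcription start was read for the members with an entry in the RefSeq promoter table (GRCm38.p6), which held 40 of the 47. Windows ran from 250 bases before to 50 bases after the start and were searched on both strands for letters tied to 4 regulators or regulator families of nuclear genes for mitochondrial proteins. These were CGCATGCG (NRF1), CCGGAAG (ETS factors), AANATGGC (YY1) and TNAAGGTCA (ERR), and no motif contains another. The YY1 letters occurred in 14 of 40 members (35.0%), against 6.96% of the 27025 genes in the table. A gene with several windows was counted once, as holding the letters if any window did. The 27025 genes were not limited to those tested here. In 8 of the 14 members the letters lay after the start, where ATG within them can also be the first codon, and in 6 before it. The NRF1 letters occurred in 10% of members against 2.07% of all genes in the table. The ETS letters occurred in 15% against 9.93%, and the ERR letters in 2.5% against 1.43%. Of the subunits that fell, 5 had a window: Ndufc1 and Ndufs7 held the YY1 letters, and Ndufv2, Ndufv3 and Ndufa12 held none of the 4. The 100 bases printed here, 68 before the start and 32 after it, show the 2 subunits that fell and hold the letters, then Ndufa3 and Ndufaf8, which hold them but did not pass the test, and last Ndufv2 and Ndufv1, with no match. Capitals mark the YY1 letters and, in Ndufaf8, also the ETS letters. The windows are chr3:51408924-51409023 (minus strand), chr10:80249381-80249480 (plus), chr7:3617305-3617404 (plus), chr11:120098866-120098965 (plus), chr17:66101528-66101627 (minus) and chr19:4012724-4012823 (minus), in the order printed.
Ndufc1: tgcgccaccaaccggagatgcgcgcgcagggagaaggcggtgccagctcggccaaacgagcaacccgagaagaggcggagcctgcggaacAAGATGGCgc
Ndufs7: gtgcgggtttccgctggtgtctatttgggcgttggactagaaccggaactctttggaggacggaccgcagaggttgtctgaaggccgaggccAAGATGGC
Ndufa3: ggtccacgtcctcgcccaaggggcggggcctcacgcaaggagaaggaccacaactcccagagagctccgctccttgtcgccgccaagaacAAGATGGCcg
Ndufaf8: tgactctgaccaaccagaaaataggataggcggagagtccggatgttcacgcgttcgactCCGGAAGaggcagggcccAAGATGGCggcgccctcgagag
Ndufv2: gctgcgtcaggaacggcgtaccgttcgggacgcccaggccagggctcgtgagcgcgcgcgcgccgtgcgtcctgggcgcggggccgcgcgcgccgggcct
Ndufv1: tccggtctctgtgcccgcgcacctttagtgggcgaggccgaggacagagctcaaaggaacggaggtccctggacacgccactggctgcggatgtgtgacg
Ndufc1, Ndufs7 and Ndufa3 share the run AAGATGGC near the end of the printed stretch, yet Ndufa3 had 72.0, 76.8 and 71.9 CPM in knock-in mice and 79.4, 78.5 and 75.9 CPM in wild-type mice, with overlapping groups (edgeR adjusted p = 0.298). Ndufv2 fell without a match and Ndufv1 did not pass without one. The match is a description of letters and not of binding.

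Taking the 39 subunits as a set, 32 had log2 fold changes below 0, and their median was -0.0974, a level 6.53% lower in knock-in, beside a median of 0.0036 over all genes tested. The lowest was Ndufa2 and the highest Ndufb3 (0.08 ± 0.05, SE; edgeR adjusted p = 0.335). In 21 subunits (53.8% of the 39, and 44.7% of the 47 members) every knock-in mouse had a lower CPM than every wild-type mouse, against 15.1% of all genes tested. In Ndufb3 and Ndufs6 every knock-in mouse was higher. Genotypes were separate in 1 direction or the other for 29.4% of all genes. The mean over subunits of the log2 difference from the wild-type mean was -0.0889, -0.0656 and -0.102 in the knock-in mice and 0.0128, 0.00559 and -0.0184 in the wild-type mice. The 3 knock-in mice thus lay below the 3 wild-type mice in the mean of the set, and the gap between the nearest mice was wider than the spread within either genotype. Subunits took between 1.104% and 1.143% of the counts outside the mitochondrial genome in knock-in mice and between 1.195% and 1.219% in wild-type mice.

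**Figure D3:**
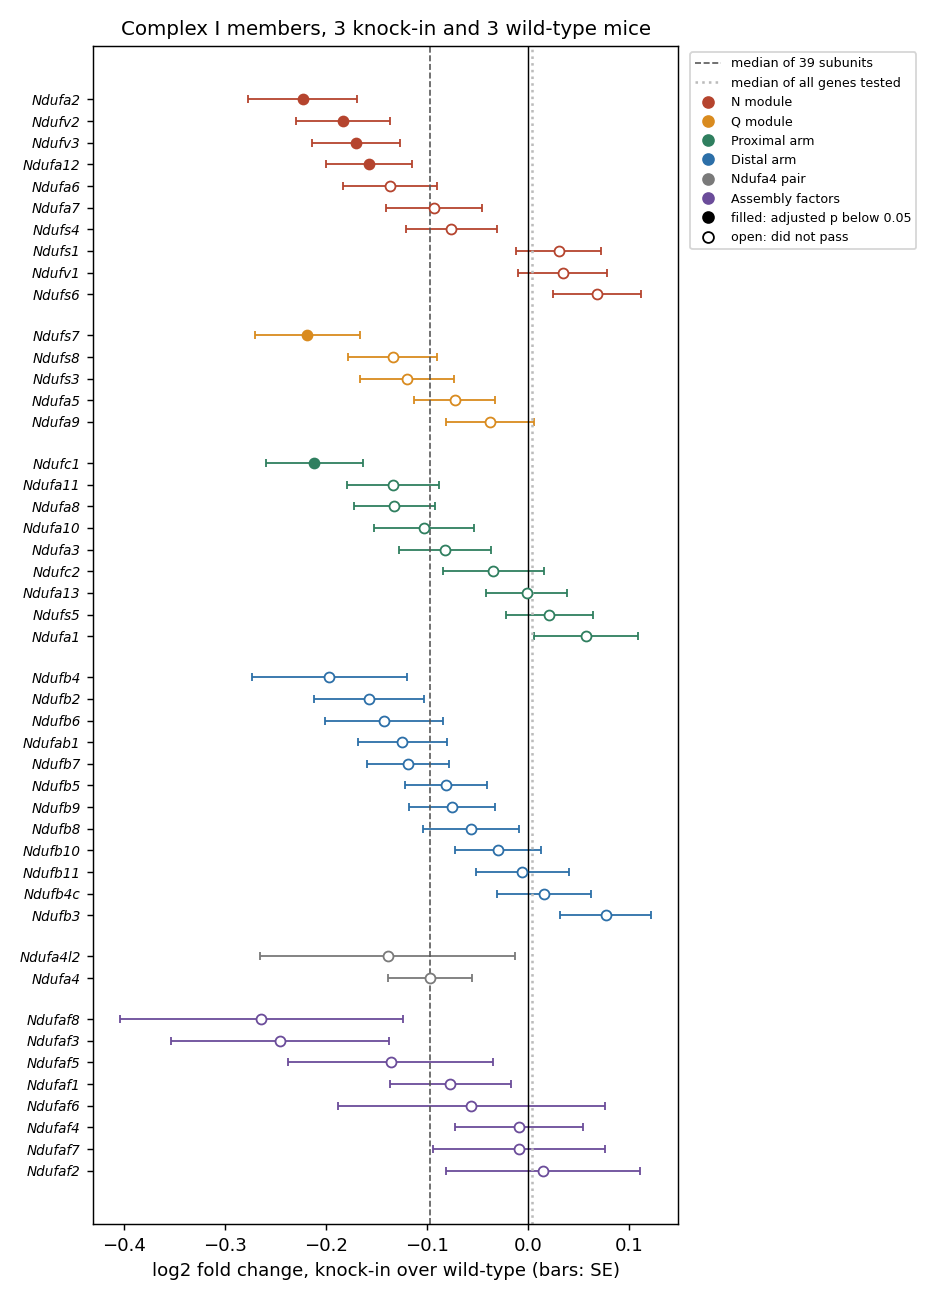
Log2 fold change of the members reported, knock-in over wild-type (horizontal axis, bars are SE), grouped by place in the enzyme. Filled points passed an adjusted p of 0.05: all 6 lie left of 0, and the dashed line marks the subunit median of -0.0974 beside the dotted median of all genes at 0.0036.

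The N module had 10 measured members, of which 4 fell and 6 did not pass, with a median log2 fold change of -0.115. The 4 were 40% of the module, against 5.01% of all genes tested that were lower in knock-in. None of these 4 calls held in every fit that left out a library, and differences between modules were not tested. The N module also held the widest span, from Ndufa2 to Ndufs6. Ndufs6, a zinc-binding subunit, had 128, 131 and 133 CPM in knock-in mice and 120.0, 127 and 127 CPM in wild-type mice. The Ndufs6 groups stood apart by less than 1 CPM between the nearest mice, its log2 fold change was 0.07 ± 0.04 (SE; edgeR adjusted p = 0.373), and with scaling by library size alone it was -0.01. Ndufs1, the core subunit that carries several clusters of the electron chain, had 441, 449 and 430.4 CPM in knock-in mice, against 422, 440.4 and 431 CPM in wild-type mice. Its groups overlapped (log2 fold change 0.03 ± 0.04, SE; edgeR adjusted p = 0.709), and with scaling by library size alone the value was -0.05. Ndufs4, whose loss causes a Leigh-like disease in mice, had a log2 fold change of -0.08 ± 0.05 (SE; edgeR adjusted p = 0.338).

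All 6 Q-module subunits had log2 fold changes below 0, from -0.22 in Ndufs7 to -0.04 in Ndufa9, with a median of -0.109. Only Ndufs7 passed. Ndufs8, which carries a pair of iron-sulfur clusters on the path to ubiquinone, missed the threshold with 82.9, 82.8 and 79.1 CPM in knock-in mice and 92.6, 88.2 and 87.8 CPM in wild-type mice (edgeR adjusted p = 0.0863). Ndufs3, which helps to seed this module during assembly, had 59.3, 61.3 and 57.1 CPM in knock-in mice and 63.4, 63.3 and 66.4 CPM in wild-type mice (edgeR adjusted p = 0.142). In both core genes the groups did not overlap, although no call was made.

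In the proximal membrane arm 1 of 9 members fell, Ndufc1 (11.1%, against 5.01% of all genes tested that were lower in knock-in). The median log2 fold change was -0.0824. Ndufa8, a twin-cysteine subunit on the intermembrane side, came next among all members, at 123, 123 and 120.0 CPM in knock-in mice and 134, 135 and 133 CPM in wild-type mice (edgeR adjusted p = 0.0663). At the other end of this arm was Ndufa1, with 74.6, 77.2 and 72.7 CPM in knock-in mice and 67.4, 75.3 and 72.9 CPM in wild-type mice. Its groups overlapped, its log2 fold change was 0.06 ± 0.05 (SE; edgeR adjusted p = 0.546), and with scaling by library size alone it was -0.03. Ndufa13, also known as GRIM-19 and linked to cell death signalling, had equal means of 143 CPM in both genotypes.

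In the distal membrane arm edgeR, DESeq2 and limma-voom called 0 of 12 members, 5 (41.7%, against 25.2% of all genes) had unadjusted p-values below 0.05, and the median log2 fold change was -0.0782. Ndufab1, the mitochondrial acyl carrier protein, which also serves fatty acid and lipoate synthesis, had 170, 172 and 164 CPM in knock-in mice, against 189, 186 and 177 CPM in wild-type mice (edgeR adjusted p = 0.110). Its groups did not overlap. The highest log2 fold change, that of Ndufb3, came from 59.6, 60.6 and 60.1 CPM in knock-in mice and 55.7, 55.8 and 59.4 CPM in wild-type mice, and with scaling by library size alone it was -0.01.

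Ndufb4 had the lowest log2 fold change of the distal arm, -0.20 ± 0.08 (SE; edgeR adjusted p = 0.142), but part of its reads cannot be separated from those of Ndufb4c. Transcripts of the pair are identical over 390 bases, out of a length of 971 bases in Ndufb4 and 390 bases in Ndufb4c. Ndufb4c, a processed pseudogene in GENCODE M21, was listed with 76.6 ± 3.45 CPM in knock-in and 75.8 ± 1.24 CPM in wild-type (SD, n = 3 each), the larger part of the pair. The sum of the pair was 92.8, 92.9 and 85.9 CPM in knock-in mice and 90.4, 92.9 and 91.9 CPM in wild-type mice, with a log2 fold change of -0.02 ± 0.05 (SE; edgeR adjusted p = 0.840). The value of Ndufb4 alone is therefore uncertain, and Ndufb4c is itself counted among the members of the distal arm. Ndufb5 shares 216 bases with Mrpl47 and Ndufb6 shares 257 bases with Smim27, so that part of their counts is uncertain as well. None of the 6 subunits that fell had another listed transcript of at least 95% identity over 200 bases.

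Ndufa4, first described in complex I and now placed in cytochrome c oxidase, had 199.98, 206 and 197 CPM in knock-in mice, against 219, 214 and 212 CPM in wild-type mice. Its groups did not overlap, and its log2 fold change was -0.10 ± 0.04 (SE; edgeR adjusted p = 0.176). Ndufa4l2, its hypoxia-inducible relative, was low at 5.12, 6.22 and 5.85 CPM in knock-in mice and 5.73, 7.39 and 5.77 CPM in wild-type mice, with overlapping groups (edgeR adjusted p = 0.547). Per kilobase of transcript, Ndufa4 had the highest level of the members, 379 CPM in knock-in and 405 CPM in wild-type, and Ndufa4l2 had 6.14 CPM in knock-in and 6.74 CPM in wild-type.

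**Figure D4:**
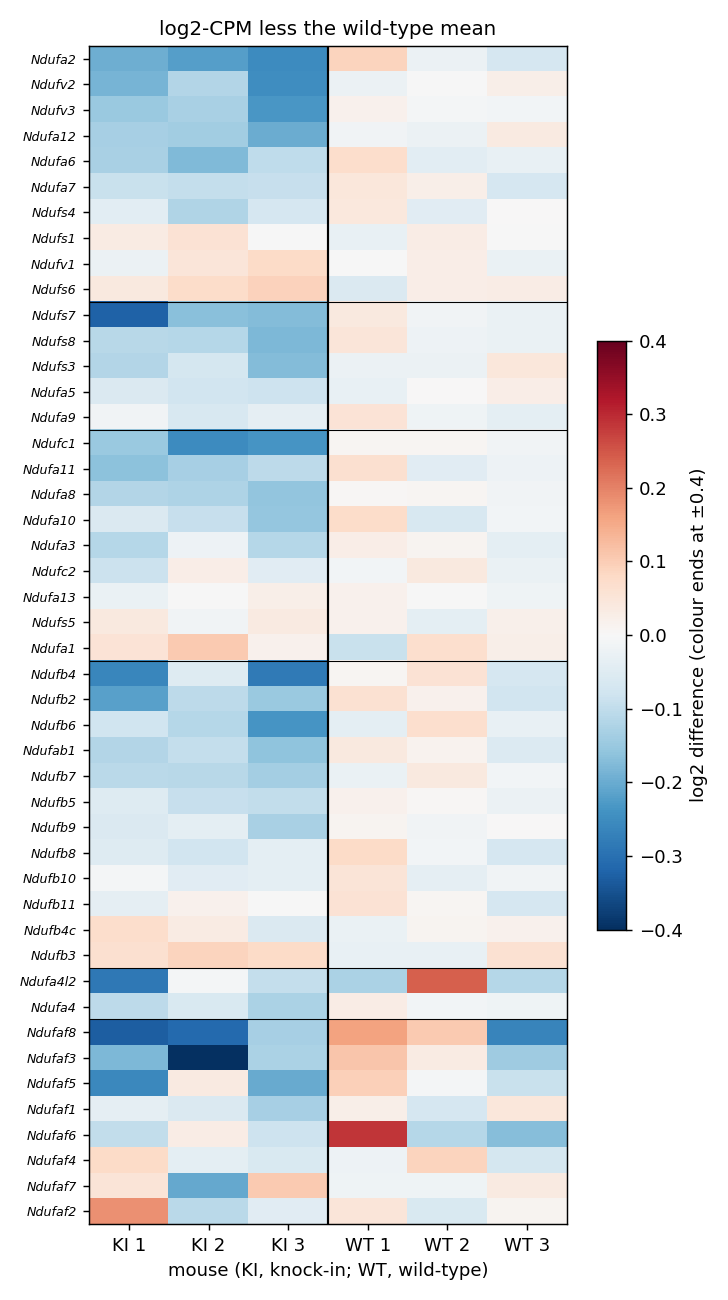
Log2-CPM of each member reported, less its wild-type mean (colour, limited to 0.4 on either side of 0) in the 6 mice (columns, knock-in left). Blue fills most subunit cells of the 3 knock-in mice, with red cells in Ndufs6, Ndufb3, Ndufa1 and a few others, while the assembly factors at the foot vary widely within both genotypes.

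Assembly factors were expressed at between 4.78 and 16.0 CPM per kilobase in knock-in and between 5.01 and 16.9 CPM per kilobase in wild-type, below every subunit except Ndufa4l2 and Ndufb4. With edgeR, DESeq2 and limma-voom 0 of 8 were called, and in edgeR 1, Ndufaf3, had an unadjusted p below 0.05 (12.5%, against 25.2% of all genes). The CPM ranges overlapped in all 8. Their median log2 fold change was -0.0666, with 7 of 8 below 0. Ndufaf3, which acts with Ndufaf4 on the Q module, had 7.55, 6.25 and 7.83 CPM in knock-in mice and 9.23, 8.76 and 7.74 CPM in wild-type mice (log2 fold change -0.25 ± 0.11, SE; edgeR adjusted p = 0.187). Ndufaf8 had the lowest log2 fold change of all 47 members but also the largest error, -0.26 ± 0.14 (SE; edgeR adjusted p = 0.278), from 3.67, 3.72 and 4.21 CPM in knock-in mice and 5.18, 4.98 and 3.84 CPM in wild-type mice. Ndufaf8 is the partner of Ndufaf5, the enzyme that hydroxylates Ndufs7, and Ndufaf5 had a log2 fold change of -0.14 ± 0.10 (SE; edgeR adjusted p = 0.453).

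The remaining assembly factors lay close to 0. Ndufaf1, of the complex that builds the membrane arm, had a log2 fold change of -0.08 ± 0.06 (SE; edgeR adjusted p = 0.474), and Ndufaf6 one of -0.06 ± 0.13 (0.836). Ndufaf4 had -0.01 (0.947), Ndufaf7, a methyltransferase, -0.01 (0.961), and Ndufaf2 had 0.01 ± 0.10 (0.946). The signs of Ndufaf2, Ndufaf4, Ndufaf6 and Ndufaf7 turned when single libraries were left out or the scaling was changed.

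Of 13 further assembly factors outside the Nduf names 12 were tested. With edgeR, DESeq2 and limma-voom 0 were called, and 9 of 12 had log2 fold changes below 0, against 49.3% of all genes tested. In edgeR 2 of 12 (Timmdc1 and Tmem186) had unadjusted p-values below 0.05, a smaller part than the 25.2% of all genes tested. Timmdc1, a membrane-arm assembly factor, had the smallest p, with 17.1, 16.7 and 15.4 CPM in knock-in mice and 18.1, 17.8 and 19.5 CPM in wild-type mice (log2 fold change -0.17 ± 0.07, SE; edgeR adjusted p = 0.137).

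Among the 7 subunits encoded by the mitochondrial genome 3 rose, 1 was lower and 3 did not pass, while 9.01% of all genes passed in either direction. mt-Nd5, of the far end of the membrane arm, had 58226, 58595 and 51803 CPM in knock-in mice, against 42083, 42411 and 46685 CPM in wild-type mice. Its log2 fold change was 0.36 ± 0.06 (SE; edgeR adjusted p = 0.00584), and it stayed called in all 6 fits that left out a library. mt-Nd4l rose by 0.25 ± 0.05 (SE; edgeR adjusted p = 0.0215) and stayed called in 3 of those fits, and mt-Nd4 rose by 0.26 ± 0.07 (SE; edgeR adjusted p = 0.0463) with overlapping groups and stayed called in 2. With scaling by library size alone neither mt-Nd4l (adjusted p = 0.0602) nor mt-Nd4 (0.0621) passed, and mt-Nd4 did not pass with robust dispersions (0.0761) or a filter of 50 counts in 3 libraries (0.0506). mt-Nd3 was listed as lower, at 1034, 1410.4 and 1019 CPM in knock-in mice and 3837, 3659 and 3763 CPM in wild-type mice (edgeR adjusted p = 3.17e-05). Its copy Gm28438, an unprocessed pseudogene 99.71% identical over 345 bases, held 83292, 80134 and 84768 counts in knock-in libraries and 0 in each wild-type library. The sum of mt-Nd3 and Gm28438 gave a log2 fold change of -0.11 ± 0.06 (SE; edgeR adjusted p = 0.283), so the fall listed for mt-Nd3 was lost with its copy's counts added.

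Each subunit's share of the summed subunit counts was compared, which does not depend on the scaling of libraries. The share was lower in every knock-in mouse than in any wild-type mouse for 8 subunits, the 6 that fell together with Ndufa8 and Ndufs8. It was higher in every knock-in mouse for 7, namely Ndufb3, Ndufs6, Ndufa1, Ndufv1, Ndufs1, Ndufs5 and Ndufa13, and overlapped for 24. Ndufs7 took 1.61%, 1.78% and 1.81% of subunit counts in knock-in mice and 1.94%, 1.91% and 1.90% in wild-type mice. Shares show unequal values among subunits and not which of them changed. They come from the same counts as the calls, and separate shares were not counted over all genes. CPM ranges were separate in 29.4% of all genes tested.

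Most members have short transcripts, and 32 of 47 lay in the shortest of 10 equal length bands of the 13280 tested genes with a known length, where the median log2 fold change was -0.0349. Less the median of their length band, the subunit median was -0.0625, and less that of their GC band -0.0934. Among the 47 members the log2 fold change had a Spearman rho of -0.10 with transcript length and -0.21 with GC content, across genes that share the same 6 libraries. The part of transcript length in the lower values was not tested.

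For comparison, of 46 nuclear genes of complexes II to V 5 fell (10.9%), 37 were below 0 and the median log2 fold change was -0.0609. Of 78 genes of the mitochondrial ribosome 2 fell (2.56%, below the 5.01% of all genes), 57 were below 0 and the median was -0.0715. Neither difference from the complex I subunits was tested, so the lower values are not shown to be particular to complex I. The genes outside the members whose log2-CPM followed the subunit mean most closely over the 6 libraries were Acd (Pearson r = 0.998), Abcb6 (0.996), Fxr2 (0.994), Mrpl52 (0.993) and Tspan17 (0.992). The subunit mean separated the genotypes, so these values describe the 6 libraries and carry no p. Of these, Abcb6, a porphyrin transporter, fell by 0.32 on the log2 scale (edgeR adjusted p = 0.0264) and Fxr2, an RNA-binding protein related to FMRP, by 0.22 (0.0165).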

How the data were processed

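Per the labels' protocols, column-purified, DNase-treated RNA was made into libraries with a stranded TruSeq total RNA kit. Demultiplexing with bcl2fastq 2.19, quantification with kallisto 0.44.0 and build GRCm38 are named by the submitters' processing notes. Whole numbers for each symbol were deposited, taken here to be estimated counts from kallisto, per the same notes. How transcripts were annotated, summed and rounded, and whether strand was used, is not given in the sources used here, so overlapping and near-identical genes are uncertain.

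Genes were filtered with filterByExpr, scaled by TMM and tested with edgeR 4.0.16 in R 4.3.3 (quasi-likelihood F test on genotype, two-sided, no covariate), with Benjamini-Hochberg adjustment over 13485 genes. A log2 fold change above 0 means higher in knock-in, and an SE is the size of the fold change divided by the root of F. The biological coefficient of variation was 8.35%, and means carry SDs of 3 mice. Log2-CPM used a prior count of 2. Depth was 24761124 to 39627397 counts per library. The same steps were run on simulated data whose planted changes were larger than those of the members that fell. That run does not cover changes of their size.

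The members and lists were chosen with earlier results of these data known. Named genes were the called members, the nuclear core subunits, all assembly factors, the highest and lowest member of each module, Ndufa4, Ndufa4l2, Ndufab1, the called or otherwise lowest-p gene among other complex I genes, and the 5 genes most correlated with the subunit mean. Rrad, Nnt, Ndufa8, Ndufs4, Ndufa13, Ndufa3, Ndufb4, Ndufb4c, Ndufb5 and Ndufb6, and genes listed by share or low count, were named after their values were seen. So were the single cardiomyocyte markers Myh6, Myl2, Tnnt2, Tnni3 and Actc1. A result selected by this rule is not reported here. Coordinates and lengths come from GENCODE M21 (all 47 members matched by symbol, median length of the principal transcripts). Near copies were searched with blastn at 95% identity over 200 bases. Promoter sequence is from RefSeq, GRCm38.p6.

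The alternatives were DESeq2 1.42.0, limma-voom (limma 3.58.1), other scalings, other filters (none, 10 or 50 counts in 3 libraries), robust dispersions, leaving out the mitochondrial genome or each library, and, chosen after seeing the data, summed copies and centring on 10 length or GC bands.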

Additional observations from a re-analysis of the deposited data

How the results depend on the processing

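Which members were called depended on the libraries and the scaling, and the direction of the subunit median did not. The number of members called lower, all of them subunits, was 3 with upper-quartile factors and 10 with library size alone, which added Ndufa8, Ndufb7, Ndufs3 and Ndufs8, and it lay between 0 and 2 when each library was left out in turn, in fits with fewer mice. Under DESeq2, limma-voom, DESeq2 size factors, the other filters, robust dispersions, removal of the mitochondrial genome and summed copies the same 6 were called. Calls over all genes were lower in knock-in in 83.8% of cases with library size alone, 48.7% with upper-quartile factors and 55.6% with TMM. The subunit median was -0.0793 with upper-quartile factors, -0.181 with library size alone and -0.0625 less the median of the length band, and -0.109 to -0.0762 with a library left out. The difference of that median from the median of all genes was -0.101 with TMM and -0.103 with library size alone. The assembly factor median was -0.150 with library size alone. Among the other complex I genes 1 was higher and 2 were lower with library size alone, 0 were lower with identical copies summed, 2 were higher with robust dispersions or with 50 counts in 3 libraries, and 1 to 3 were higher with a library left out. Among members named by the rule that had not passed, these log2 fold changes turned sign: with library size alone Ndufv1 (-0.0480), Ndufs1 (-0.0535), Ndufaf2 (-0.0685), Ndufs6 (-0.0136), Ndufa1 (-0.0263) and Ndufb3 (-0.00505), with upper-quartile factors Ndufaf4 (0.00863) and Ndufaf7 (0.00886), and over the fits with a library left out Ndufaf2 (-0.0740 to 0.0698), Ndufaf4 (-0.0518 to 0.0373), Ndufaf6 (-0.142 to 0.0916) and Ndufaf7 (-0.0723 to 0.0767). Of the other members Ndufs5 (-0.0611 to 0.0392), Ndufb4c (-0.0685 to 0.0518), Ndufa13 (-0.0839 to 0.0166) and Ndufb11 (-0.0894 to 0.0225) turned sign over all settings run. The cause of these differences was not tested. No paired analysis was possible because the labels give no replicate number shared between the genotypes. With 3 mice per genotype and changes of 10.3% to 14.3% in the subunits that fell, smaller differences may have been missed.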
